A study of Homo sapiens with 4 samples.

Results

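The TRAPP complex subunits examined here are 10 genes, TRAPPC1, TRAPPC3, TRAPPC4, TRAPPC5, TRAPPC6A, TRAPPC6B, TRAPPC8, TRAPPC9, TRAPPC10 and TRAPPC12, of 18404 genes that have a probe set named for them alone on the array. Each has 1 such probe set, so 10 of the 32321 probe sets carry the values below. TRAPPC6B was chosen because it was higher on these same arrays after CASP2 silencing. Its values are therefore given as a description, with no test. The other subunits belong to the same complex and were chosen by name, and they were tested in the fit across all probe sets.

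TRAPP (transport protein particle) is a tether of vesicles in the secretory and endocytic pathways and in autophagy. Its small core subunits form an elongated particle that acts as a nucleotide exchange factor for Rab GTPases, switching them to the active form on the target membrane. In mammals the core is shared by a pair of larger assemblies. TRAPPII adds TRAPPC9 and TRAPPC10 and works at the Golgi, and TRAPPIII adds TRAPPC8, TRAPPC11, TRAPPC12 and TRAPPC13 and serves early secretory transport and autophagy. TRAPPC6A and TRAPPC6B are paralogs that occupy the same kind of position in the core. Inherited variants of several subunits, among them TRAPPC6B and TRAPPC9, cause disorders of brain development.

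The arrays were from U87MG, an established human glioblastoma cell line, grown in DMEM with serum. One group was transfected with a siRNA against CASP2, the gene of the apoptotic protease caspase-2 (2 arrays), and the other with a control siRNA (2 arrays); per the labels, each array is a biological replicate. No other treatment or allele is stated. The labels name Dharmacon as the supplier, for which the methods list a single CASP2 oligo and, as control, a mutated form of it; the interval between transfection and RNA extraction for the arrays was not given in the sources used here. Values are log2 RMA values, in which a difference of 1 is a doubling, and differences are CASP2 siRNA minus control siRNA.

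CASP2 itself was at 8.79 and 8.52 on the silenced arrays, against 10.74 and 10.69 on the control arrays, a log2 difference of -2.06 (SE 0.13). Even CASP2 had an adjusted limma p of 0.9999, so adjusted p-values here cannot tell a changed gene from an unchanged one. By limma, 0 of 32321 probe sets (0%) had an adjusted p under 0.05 and 979 (3.03%) an unadjusted one, while the methods' t-test gave 0 and 100. The thresholds of the study were 1.5-fold and an unadjusted p of 0.05, and by limma 107 probe sets were higher (0.331%) and 117 lower (0.362%) past them. With each named gene taken by its brightest probe set, 10 of 18404 genes were higher (0.0543%) and 24 lower (0.13%) past the same thresholds, and 386 (2.1%) had an unadjusted limma p under 0.05. The silenced arrays lay farther apart, since the SD of replicate 1 minus replicate 2 over probe sets was 0.348 for CASP2 siRNA, against 0.205 for control siRNA. Of the U87MG markers, 7 had a probe set of their own and all 7 lay above the median level of the array. NES was the lowest at percentile 53.3, and CAV1, CD44 and VIM lay above the 99th. CDKN2A, listed as deleted in this line, lay below the median at percentile 44.2. Of 11 markers of neurons, oligodendrocytes, blood, epithelium and endothelium, 9 lay below that median. The exceptions were the neuronal genes SNAP25 and SYT1, at percentiles 73.2 and 57.4, both above NES. The summed log2 level of these 11 was 62.3 and 63.1 on the silenced arrays, against 62.0 and 62.1 on the control arrays.

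TRAPPC6B was higher on both silenced arrays. Its log2 value was 8.09 and 7.97 on the CASP2 siRNA arrays, against 7.12 and 7.09 on the control siRNA arrays. The groups were separated by a gap of 0.85, while the arrays within a group differed by 0.12 after CASP2 siRNA and by 0.031 after control siRNA. The mean was 8.03 ± 0.082 after CASP2 siRNA and 7.11 ± 0.022 after control siRNA (SD, n = 2 each), a log2 difference of 0.93 or 1.90-fold. In bulk RNA of a culture, a change in every cell and a larger change in some of the cells cannot be told apart. Leaving out any single array moved the difference no further than 0.87 to 0.98. By the size of the increase TRAPPC6B was number 7 of 19158 probe sets with a single gene symbol.

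Its paralog TRAPPC6A gave no such separation. TRAPPC6A was at 6.93 and 7.18 on the silenced arrays, against 6.95 and 7.08 on the control arrays, so the control values lay inside the span of the silenced ones. The log2 difference was 0.040, with a 95% confidence interval of -0.31 to 0.39 (limma, adjusted p = 0.9999). That limma interval, which borrows spread from all probe sets, excludes a 1.5-fold change in either direction, which is 0.58 on the log2 scale. The interval of TRAPPC6A by the methods' t-test is wider and holds a 1.5-fold increase. Set against the control mean, the silenced arrays lay at 0.98 and 0.87 for TRAPPC6B, against -0.088 and 0.17 for TRAPPC6A, and the difference of TRAPPC6B exceeded that of TRAPPC6A by 0.89. This last value rests on the choice of TRAPPC6B and was not tested. The sign of the TRAPPC6A difference depended on single arrays, since it was -0.088 without CASP2 siRNA replicate 2 and -0.025 without control siRNA replicate 1.

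**Figure D1:**
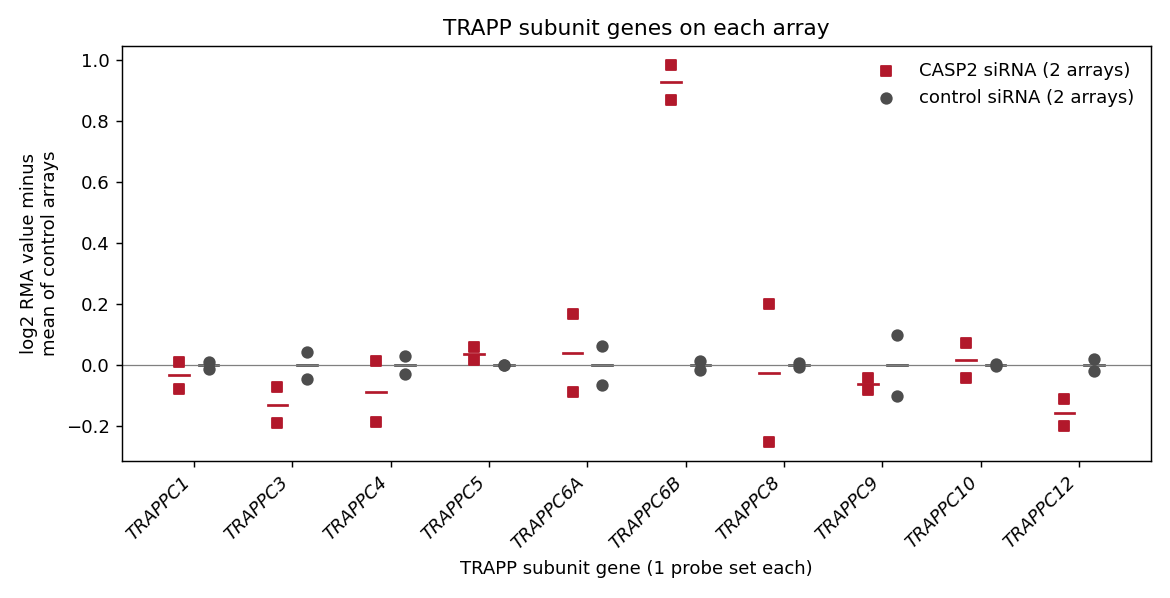
Log2 RMA value of each array, less the control mean of the same gene (y axis), for the 10 TRAPP subunit genes (x axis); squares are the CASP2 siRNA arrays, circles the control siRNA arrays and short lines the group means. The silenced arrays lie at 0.98 and 0.87 for TRAPPC6B, while those of every other gene lie between -0.25 and 0.20.

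The other core subunits kept close to their control values. TRAPPC1, which in the yeast particle has the counterpart Bet5 and contacts the Rab, was at 12.11 and 12.02 on the silenced arrays, against 12.11 and 12.09 on the control arrays (log2 difference -0.033, 95% confidence interval -0.28 to 0.22). TRAPPC4, the counterpart of yeast Trs23, was at 9.16 and 8.96 after CASP2 siRNA and 9.17 and 9.11 after control siRNA (-0.087, -0.39 to 0.21). In both genes the groups overlapped. TRAPPC3, the counterpart of yeast Bet3 and a building block of both ends of the core, was at 10.94 and 10.82 after CASP2 siRNA, against 10.97 and 11.05 after control siRNA, and here both silenced arrays lay below both controls, by a gap of 0.026 (-0.13, -0.40 to 0.14). TRAPPC5, a core subunit of the same fold, was at 10.22 and 10.26 after CASP2 siRNA, against 10.21 and 10.20 after control siRNA. Both silenced arrays of TRAPPC5 lay above both controls by a gap of 0.016, and the difference of 0.037 had an interval of -0.20 to 0.28. None of these 4 genes had an unadjusted limma p under 0.05, and the adjusted p was 0.9999 for each.

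The subunits specific to TRAPPII did not separate the groups. TRAPPC9, also known as a binding partner of NF-kB kinases and needed for brain growth, was at 7.83 and 7.79 on the silenced arrays, against 7.77 and 7.97 on the control arrays. Its log2 difference was -0.061 (95% confidence interval -0.36 to 0.24). TRAPPC10, the other large subunit of this assembly, was at 9.27 and 9.15 on the silenced arrays, against 9.19 and 9.20 on the control arrays, a difference of 0.016 (-0.24 to 0.27). For TRAPPC10 the controls lay between the silenced values, and for TRAPPC9 the silenced values lay between the controls.

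Of the TRAPPIII subunits among the 10, TRAPPC12 lay lowest. It was at 8.23 and 8.14 on the silenced arrays, against 8.36 and 8.32 on the control arrays, so that both silenced arrays lay below both controls by a gap of 0.092. The log2 difference of -0.16 had an interval of -0.41 to 0.096 and the smallest unadjusted limma p of the 9 genes other than TRAPPC6B. TRAPPC8, whose yeast counterpart Trs85 directs the particle to sites of autophagosome formation, had the widest spread, at 9.24 and 8.79 after CASP2 siRNA, against 9.04 and 9.05 after control siRNA. Its silenced arrays thus lay on opposite sides of the controls, the difference was -0.025 and the interval was -0.49 to 0.44. Without CASP2 siRNA replicate 1 the difference of TRAPPC8 was -0.25 and without CASP2 siRNA replicate 2 it was 0.20.

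Among the 9 genes other than TRAPPC6B, 3 lay above 0 and 6 below, with a median difference of -0.033, beside 0.0022 over all probe sets. Their groups did not overlap in 3 of 9 (33.3%), beside 29.6% of all probe sets, of which 14.5% lay above and 15.1% below the controls. For 0 of the 9 was the unadjusted limma p under 0.05, beside 3.03% of all probe sets, and the methods' t-test also gave 0. The median size of the difference was 0.040 in the 9 genes and 0.086 over all probe sets. All 10 members lie above the median level of the array, while all probe sets include dim and unnamed ones, so these sizes are not like for like. In 7 of the 9, CASP2 siRNA replicate 2 lay below replicate 1, as it did in 63.3% of probe sets above the median level. TRAPPC6B also had its lower silenced value in replicate 2.

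Of the subunits outside the 10, 6 had a probe set named for them alone, and in all 6 the groups overlapped. TRAPPC2, the core subunit mutated in X-linked spondyloepiphyseal dysplasia tarda, was at 7.36 and 7.33 on the silenced arrays, against 7.35 and 7.29 on the control arrays (log2 difference 0.029, 95% confidence interval -0.22 to 0.27). TRAPPC2 has a near-identical copy, TRAPPC2B, so its signal could hold RNA of both. The only probe set with the name TRAPPC2B also carries ZNF547 and was not used. TRAPPC2L, a core subunit related to TRAPPC2, was at 9.08 and 8.77 on the silenced arrays, against 8.96 and 9.04 on the control arrays (-0.077, -0.44 to 0.29). TRAPPC11, a TRAPPIII subunit linked to muscular dystrophy, was at 8.54 and 8.20 after CASP2 siRNA, against 8.44 and 8.51 after control siRNA (-0.11, -0.50 to 0.28). TRAPPC14, a subunit with a part in ciliogenesis, had -0.0091 (-0.25 to 0.24).

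TRAPPC13, of TRAPPIII, has a pair of probe sets, which gave -0.024 (-0.44 to 0.39) in the brighter and 0.14 (-0.28 to 0.57) in the dimmer. TRAPPC3L, a relative of TRAPPC3, gave 0.015 (-0.31 to 0.34). TRAPPC3L and the dimmer TRAPPC13 probe set had mean log2 values below 4.41, the lower quartile of all probe sets, where RMA compresses differences. Over all 16 TRAPP probe sets other than that of TRAPPC6B, the limma interval excluded a 1.5-fold change in either direction in 16. That count rests on limma. Intervals by the methods' t-test are wider, and several of them, among them those of TRAPPC3, TRAPPC8 and TRAPPC12, hold a 1.5-fold change. The share over all probe sets is not given here.

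**Figure D2:**
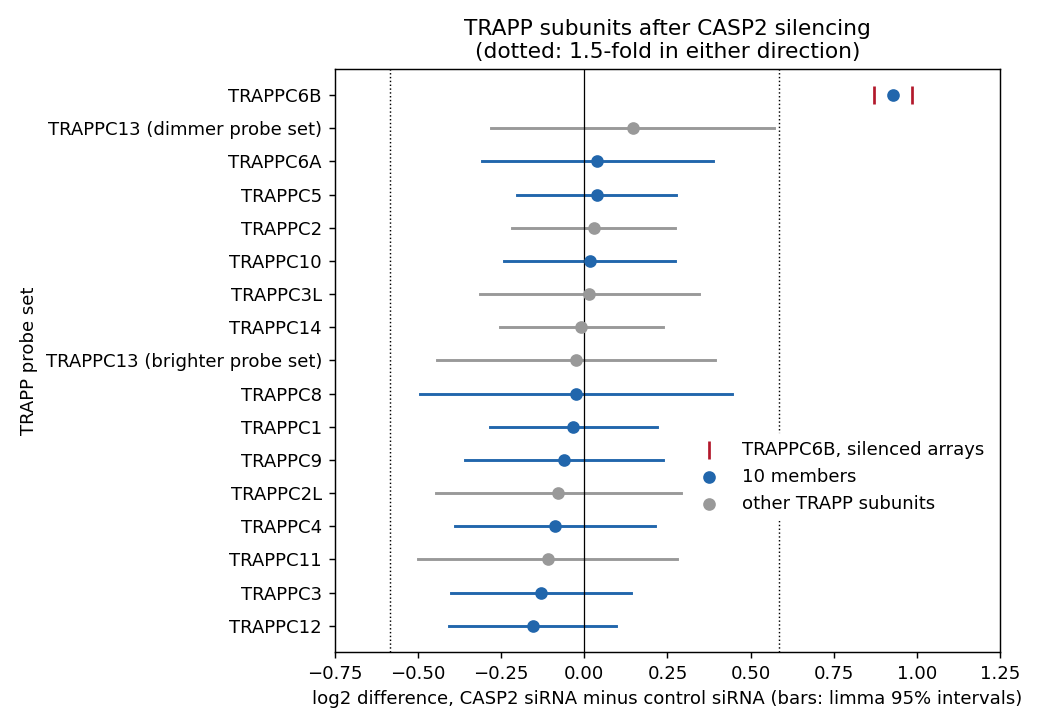
Log2 difference, CASP2 siRNA minus control siRNA (x axis), of the 17 TRAPP probe sets (y axis); circles are differences of group means, bars limma 95% confidence intervals and dotted lines a 1.5-fold change. TRAPPC6B is drawn without an interval, with ticks for its silenced arrays at 0.98 and 0.87, and the other probe sets lie between -0.16 and 0.14.

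Genes that work with TRAPP were examined in lists, each gene by its brightest probe set. The Rab GTPases that TRAPP acts on or has been linked to were RAB1A, RAB1B, RAB11A, RAB11B, RAB18 and RAB43. RAB1A, the Rab of ER to Golgi transport and the best known substrate, was at 10.94 and 10.89 on the silenced arrays, against 11.14 and 11.17 on the control arrays. Both silenced arrays of RAB1A lay below both controls, with a difference of -0.24 (95% confidence interval -0.48 to 0.0042; limma, adjusted p = 0.9999). RAB43, a Golgi Rab, had 0.097 (-0.15 to 0.34). Of the 6 genes, 4 lay above 0 and their median was 0.039. Both silenced arrays lay above both controls in 3 of the 6 and below them in 1. The shares of genes by brightest probe set were 14.6% and 16.4%.

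The coat and fusion proteins of the step that TRAPP serves showed small values. COPII forms the coat of vesicles that leave the ER. Of 14 COPII genes, 10 lay above 0, their median was 0.029, and in 7 of the 14 both silenced arrays lay above both controls, beside 14.5% of all probe sets and 14.6% of genes by brightest probe set. SEC24A, a cargo adaptor of the coat, was at 9.84 and 9.96 on the silenced arrays, against 9.52 and 9.69 on the control arrays (0.30, 95% confidence interval -0.0042 to 0.59; limma, adjusted p = 0.9999). SEC23B, of the inner coat, had 0.11 (-0.13 to 0.35). A list of 12 genes held the ER-Golgi SNAREs, which fuse vesicle and target membranes, and SCFD1 and SCFD2, Sec1/Munc18 proteins that bind SNAREs. Of these 12, 7 lay above 0, with a median of 0.017. USE1, a SNARE of retrograde transport to the ER, was at 9.24 and 9.12 after CASP2 siRNA, against 9.39 and 9.38 after control siRNA (-0.20, -0.46 to 0.054). BNIP1, a SNARE of the ER, had -0.18 (-0.63 to 0.28).

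Other tethering complexes gave the following values. In COG, the tether of traffic within the Golgi, 5 of 7 genes lay below 0 with a median of -0.099, with COG4 at -0.15 (95% confidence interval -0.41 to 0.11) and COG6 at -0.11 (-0.38 to 0.16). Of 11 golgins and their partners, the long coiled-coil tethers of the Golgi, 9 lay below 0, with a median of -0.055, and in 4 (36.4%) both silenced arrays lay below both controls, beside 15.1% of all probe sets and 16.4% of genes by brightest probe set. GOLGA2, the Golgi matrix protein GM130, was at 8.33 and 8.14 on the silenced arrays, against 8.48 and 8.42 on the control arrays (-0.22, -0.51 to 0.077), and GCC1 had -0.19 (-0.45 to 0.077). Of 8 genes of the exocyst, the tether at the plasma membrane, 6 lay below 0, with a median of -0.049, and EXOC6 and EXOC3 had 0.21 (-0.033 to 0.45) and 0.14 (-0.10 to 0.39).

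The GARP and EARP tethers of endosome-derived vesicles had 4 of 5 genes below 0 and a median of -0.052. VPS52, a subunit of both, was at 9.24 and 9.08 on the silenced arrays, against 9.37 and 9.47 on the control arrays (-0.26, 95% confidence interval -0.55 to 0.034). A dimmer VPS52 probe set was at 5.61 and 5.48 on the silenced arrays, against 5.83 and 6.21 on the control arrays (-0.47, -0.90 to -0.046; limma, adjusted p = 0.9999), and its unadjusted p was under 0.05. In both VPS52 probe sets the silenced arrays lay below the controls. VPS50, of EARP, had -0.23 (-0.86 to 0.41). HOPS and CORVET, the tethers of late and early endosomes, had 6 of 7 genes below 0 and a median of -0.043, with TGFBRAP1 at -0.21 (-0.56 to 0.13) and VPS11 at -0.085 (-0.37 to 0.20). The 3 genes of NRZ, the ER tether of retrograde vesicles, had a median of -0.037, with NBAS at -0.056 (-0.30 to 0.19) and RINT1 at -0.025 (-0.31 to 0.26). Of 4 autophagy genes that work with TRAPPIII, 2 had a value above 0, among them ATG9A, a lipid scramblase of autophagy vesicles, at 0.18 (-0.081 to 0.44), and TBC1D14, a Rab regulator that binds TRAPPIII, had -0.073 (-0.34 to 0.19).

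In these lists apart from TRAPP, 77 genes were measured and 0 had an unadjusted limma p under 0.05 in their brightest probe set, beside 2.1% of genes taken in the same way. With a trended, robust prior 3 of the 77 had one, RAB1A, SEC24A and VPS52, and by quantile normalization or without dim probe sets RAB1A had one. The share of all genes with one in these settings is not given here, so these calls have no background beside them. Without CASP2 siRNA replicate 1 the spread came from the control pair alone, and calls are not counted. In the settings that kept all arrays, 0 probe sets of the whole array reached an adjusted p under 0.05. That 0 of the 77 did was thus fixed beforehand. In the fit of all arrays, for 72 of the 77 the limma 95% confidence interval excluded a 1.5-fold change in either direction, and the others were BNIP1, COG2, EXOC8, SEC24A and VPS50. Without CASP2 siRNA replicate 1, which leaves a single silenced array, the differences of these 5 were -0.37, -0.45, -0.34, 0.35 and -0.55, in that order. The count of 72 rests on limma, and the share over all genes is not given here. Intervals by the methods' t-test are wider, and those of RAB1A and VPS52, among others, hold a 1.5-fold decrease. The median of the 77 was -0.025, as small as that of the TRAPP genes without TRAPPC6B, and the values ran from -0.26 to 0.30. Both silenced arrays lay above both controls in 16 of the 77 and below them in 14, beside 14.6% and 16.4% of genes by brightest probe set. Signs of most list medians changed with single arrays. Without CASP2 siRNA replicate 2 the medians were 0.020 for COG, 0.0045 for the exocyst, 0.012 for GARP and EARP, 0.028 for HOPS and CORVET, 0.059 for NRZ and 0.017 for the TRAPPIII autophagy genes, all 6 of them below 0 with 4 arrays. The TRAPP genes without TRAPPC6B likewise had a median of 0.022, against -0.025 with 4 arrays. Without CASP2 siRNA replicate 1 the medians were -0.16 for GARP and EARP and 0.087 for COPII, and the list with the SNAREs had -0.052. That list also lay below 0 without control siRNA replicate 2 (-0.027), and the TRAPPIII autophagy genes lay above 0 without CASP2 siRNA replicate 1 (0.0035) or control siRNA replicate 1 (0.017).

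**Figure D3:**
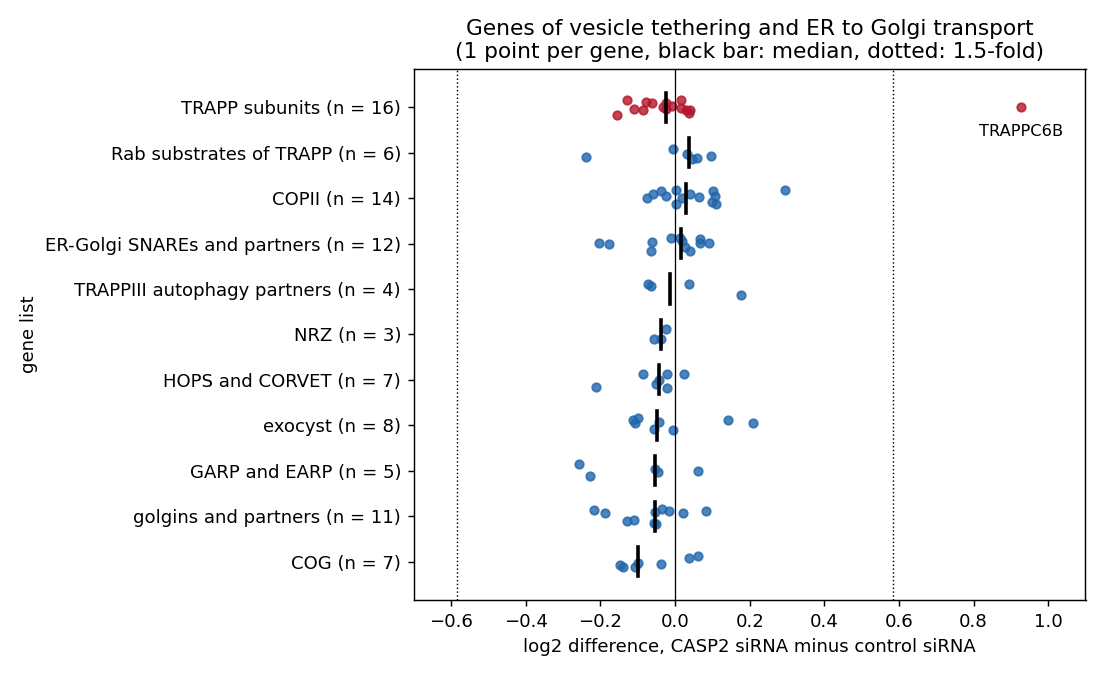
Log2 difference, CASP2 siRNA minus control siRNA (x axis), of TRAPP subunits and of genes that work with TRAPP (y axis, by list); each point is 1 gene by its brightest probe set, black bars are list medians and dotted lines a 1.5-fold change. TRAPPC6B lies at 0.93, and all other genes lie between -0.26 and 0.30.

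Genes around TRAPPC6B on chromosome 14 were compared, in the order of the RefSeq gene table, using the 3 nearest on each side with a probe set of their own. Genes without one were passed over. The gaps to TRAPPC6B ran from 4921 bp for PNN to 891721 bp for CLEC14A, with FBXO33 at 227351 bp. On the one side were GEMIN2, of the SMN complex, at 0.016 (95% confidence interval -0.37 to 0.40), SEC23A, of the COPII inner coat, at 0.099 (-0.17 to 0.37), and CLEC14A, an endothelial lectin, at 0.072 (-0.20 to 0.34). On the other side were PNN, a splicing protein of the nuclear speckle, at -0.083 (-0.39 to 0.23), MIA2, a protein of ER exit sites, at 0.050 (-0.23 to 0.33), and FBXO33, an F-box protein, at -0.27 (-0.89 to 0.34). PNN, the nearest gene on that side, was at 9.46 and 9.24 on the silenced arrays, against 9.45 and 9.41 on the control arrays, so its groups overlapped. SEC23A was at 11.302 and 11.429 on the silenced arrays, against 11.234 and 11.299 on the control arrays. Both its silenced arrays thus lay above both controls, as in 14.6% of genes by brightest probe set. Around TRAPPC6A on chromosome 19, GEMIN7, PPP1R37, NKPD1, BLOC1S3, EXOC3L2 and MARK4 had values from -0.11 to 0.025. None of these 12 neighbours had an unadjusted limma p under 0.05, beside 2.1% of genes by brightest probe set.

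The genes whose values were most like those of TRAPPC6B were found by the Euclidean distance between array values, each taken minus the mean of its controls, over the 4 arrays. The nearest were CYP51A1, the lanosterol demethylase of cholesterol synthesis (distance 0.23 on the log2 scale), PCDHA5, a protocadherin (0.30), LIPA, the lysosomal acid lipase (0.36), PIK3R3, a regulatory subunit of phosphatidylinositol 3-kinase (0.42), and KCTD16, an auxiliary subunit of GABA-B receptors (0.43). The paralog TRAPPC6A lay at a distance of 1.29, and the median over probe sets with a single symbol was 1.33. CYP51A1 was at 7.46 and 7.42 on the silenced arrays, against 6.74 and 6.53 on the control arrays. PCDHA5 was at 5.74 and 5.86 after CASP2 siRNA, against 4.68 and 4.71 after control siRNA. All 5 were past the thresholds of the study, as any gene close to TRAPPC6B must be far from its controls, and the likeness over 4 arrays is a description only.

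**Figure D4:**
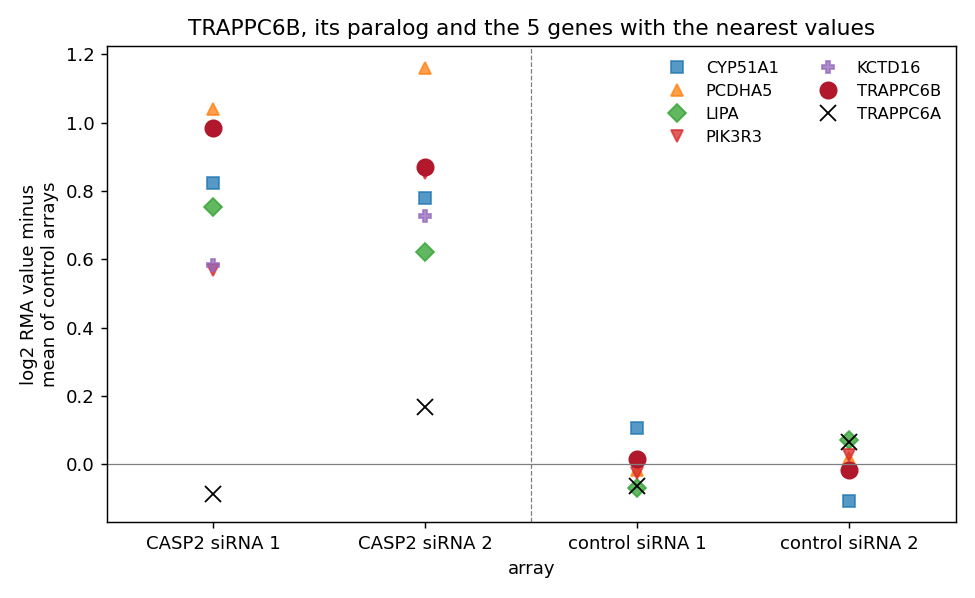
Log2 RMA value, less the control mean of the same gene (y axis), by array (x axis) for TRAPPC6B, its paralog TRAPPC6A and the 5 genes with the smallest distance to TRAPPC6B; each symbol is 1 gene. On the silenced arrays TRAPPC6B lies at 0.98 and 0.87, CYP51A1 at 0.82 and 0.78, and TRAPPC6A at -0.088 and 0.17.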

How the data were processed

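The authors hybridized total RNA to Affymetrix GeneChip Human Gene 1.0 ST arrays and normalized them by RMA (version not given in the sources used here). The authors deposited a table of log2 values for 32321 probe sets on 4 arrays. RMA equalizes probe distributions between arrays, so a shift of all genes is largely removed. Precision is limited by the few arrays: an exact permutation test of 2 arrays against 2 cannot go below p = 0.333.

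Gene names came from the platform annotation and were updated by gene ID through the RefSeq table (GRCh38.p14) for 19128 of 19158 probe sets with a single symbol. Those with several symbols (1388) or none (11775) entered the fit unnamed. The fit used limma 3.58.1 in R 4.3.3 (lmFit and eBayes, two-sided, Benjamini-Hochberg over all probe sets), after the fit was tested on simulated data. Intervals are 95% limma intervals and cover no more than the spread of these arrays. Fits used 2 residual and 2.47 prior degrees of freedom.

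The members and gene lists were chosen with earlier results of these data known. Named genes were all TRAPP subunits, the 2 of smallest p per list, the 3 neighbours on each side of the paralogs, CASP2 and the 5 genes nearest to TRAPPC6B; COG2, EXOC8 and the dimmer VPS52 probe set were named after their values were seen. Alternatives were the methods' t-test (pooled standard deviation raised to its median), eBayes with a trended, robust prior, quantile normalization of the table, a filter on dim probe sets, the replicate number as a block, all probe sets of a gene, and each array left out in turn.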

Additional observations from a re-analysis of the deposited data

How the results depend on the processing

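The log2 difference of TRAPPC6B was 0.94 by quantile normalization and 0.87 to 0.98 with single arrays left out. That range restates the differences within groups of a gene chosen on these same arrays. The other tests, the filter and the block leave a difference of group means as it is and say nothing of its stability. The 16 other TRAPP probe sets did not pass the thresholds of the study in any alternative that kept all arrays. TRAPPC3L and the dimmer TRAPPC13 probe set had no value without dim probe sets. An adjusted p of 0.05 was passed by 0 probe sets of the whole array in these alternatives, so it could not single out a TRAPP probe set. Without CASP2 siRNA replicate 1 the difference was -0.25 for TRAPPC8 and -0.28 for TRAPPC11. Without CASP2 siRNA replicate 2 it was 0.33 for the dimmer TRAPPC13 probe set. Calls with an array left out are not counted. A group left with 1 array adds nothing to the spread and is assumed to vary like the other. With a silenced array left out, p-values thus rest on the control pair, the closer of the pairs (SD of the array difference 0.205, against 0.348 for CASP2 siRNA).

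Signs of small differences changed in 17 pairs of probe set and alternative, all by quantile normalization or with an array left out. The sign was kept in 4 of 17 probe sets, TRAPPC3, TRAPPC5, TRAPPC6B and TRAPPC12. The groups of these 4 do not overlap, so leaving out an array could not change their sign. By quantile normalization TRAPPC8 had 0.0038 and TRAPPC14 had 0.021. With each array left out, the ranges were -0.088 to 0.17 for TRAPPC6A, -0.078 to 0.012 for TRAPPC1, -0.19 to 0.013 for TRAPPC4, -0.25 to 0.20 for TRAPPC8, -0.16 to 0.040 for TRAPPC9, -0.042 to 0.074 for TRAPPC10, -0.28 to 0.060 for TRAPPC11, -0.22 to 0.17 and -0.037 to 0.33 for the brighter and dimmer TRAPPC13 probe sets, -0.040 to 0.022 for TRAPPC14, -0.0037 to 0.061 for TRAPPC2, -0.23 to 0.075 for TRAPPC2L and -0.11 to 0.14 for TRAPPC3L. The cause was not tested.

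Counts over all probe sets past the thresholds of the study were 35 higher and 37 lower by the methods' t-test, whose standard deviation has a floor. They ranged from 118 to 414 higher and from 157 to 592 lower with an array left out, the most after leaving out CASP2 siRNA replicate 2 (414 higher) and CASP2 siRNA replicate 1 (592 lower), when the spread came from the control pair alone. With the replicate number as a block, 142 were higher and 160 lower past the thresholds, and no call of a TRAPP probe set changed. Over probe sets, replicate 1 minus replicate 2 in the silenced group had a correlation of 0.020 with that in the control group. Whether same-numbered arrays shared a culture or a day is not stated, and this value cannot tell.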
